A study of Mus musculus with 12 samples.

Results

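The genes described here encode 10 integrin chains, 6 alpha and 4 beta, listed by name from the 23438 genes of the deposited table, and all 10 were found there. They are Itgal, Itgam, Itgax and Itgb2 of the leukocyte integrins, Itga4 and Itgb7, Itgav and Itgb5, and Itgb1 with Itga6. RNA was sequenced from bone marrow derived macrophages (BMDMs), cells grown out of mouse marrow, on day 7 of differentiation. The marrow donors were C57 mice with atherosclerosis, in both genotypes, and the comparison was Baf60a KO (5 libraries) against WT (7 libraries). The sources used here do not give the age of the mice, how the atherosclerosis was brought about, how the knockout was made, or whether each library came from its own mouse. The p-values therefore measure the library-to-library spread, part of which may be technical.

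Integrins are receptors for matrix and for other cells, each built of 1 alpha and 1 beta chain, and a chain without its partner is generally not displayed at the surface. The beta 2 chain is restricted to leukocytes, where it pairs with the alpha L, alpha M and alpha X chains to bind ICAMs, complement fragment iC3b and fibrinogen. The alpha 4 chain pairs with beta 1 to bind VCAM-1 and fibronectin, or with beta 7 to bind MAdCAM-1 in gut vessels. The alpha V chain pairs with beta 5 to bind vitronectin and to take up dying cells, and alpha 6 with beta 1 to bind laminin. Transcript levels do not show how much protein reaches the surface.

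Smarcd1, which encodes Baf60a, was checked first: it lay at 5.99 to 7.58 TPM in the KO libraries and 11.6 to 15.6 TPM in WT (limma adjusted p of 7.4e-04). TPM is a transcript's share of its library, corrected for length, and it carries no read depth. WT replicates 2, 3 and 4 stood apart from the other 9 libraries in cell type markers. In those 3 the summed level of 8 fibroblast and smooth muscle markers was 3903 to 9784 TPM, against 112 to 605 TPM in the other 9, and 6 of the 8 lay above all other libraries. Highest of the 8 there were Acta2 (1574 to 4236 TPM) and Tagln (1467 to 3563 TPM). Not among the 6 were Dcn, at 3.22 to 11.05 TPM against 2.06 to 8.84 TPM, and Lum, at 0.12 TPM or less in every library. The sum of 8 neutrophil markers was 79.1 to 108 TPM against 1003 to 6253 TPM, with 7 of the 8 below all others. Of 7 macrophage markers 4 lay below all others, with sums of 1899 to 3196 TPM against 5454 to 6727 TPM, and C1qa was at 146 to 474 TPM against 2241 to 3113 TPM. The macrophage markers Cd68 and Adgre1 were abundant in all 12 libraries. In bulk RNA, fewer cells of a type and less RNA per cell cannot be told apart. The genotypes were therefore compared with all 12 libraries and with the 9 left without WT replicates 2, 3 and 4.

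The genes of alpha L, alpha M and alpha X lie on the same strand of chromosome 7, and those of alpha M and alpha X are neighbours 11055 bases apart (mm10). Itgam lies at 128062640 to 128118491 and Itgax at 128129547 to 128150657. Itgal lies at 127296260 to 127335138. The promoters of Itgam and Itgax are shown because these neighbours varied so unequally in these libraries. That of Itgb7 is shown because Itgb7 passed the test with 9 libraries. Itgb5 also passed there, and its window, not printed here, held the letters marked below on neither strand. The sequences come from RefSeq on GRCm38.p6, 250 bases before to 30 after the annotated start, 5′ to 3′. Capitals mark the letters GAGGAAG or, for the other strand, CTTCCTC, a core of sites of the myeloid factor PU.1.
Itgam (chr7:128062390-128062669, plus strand): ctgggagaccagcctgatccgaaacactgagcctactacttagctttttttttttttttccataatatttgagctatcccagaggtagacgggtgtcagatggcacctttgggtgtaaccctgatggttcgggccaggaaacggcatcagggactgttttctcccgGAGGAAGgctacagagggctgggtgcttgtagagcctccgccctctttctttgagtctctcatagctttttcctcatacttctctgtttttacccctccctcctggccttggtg
Itgax (chr7:128129300-128129579, plus strand): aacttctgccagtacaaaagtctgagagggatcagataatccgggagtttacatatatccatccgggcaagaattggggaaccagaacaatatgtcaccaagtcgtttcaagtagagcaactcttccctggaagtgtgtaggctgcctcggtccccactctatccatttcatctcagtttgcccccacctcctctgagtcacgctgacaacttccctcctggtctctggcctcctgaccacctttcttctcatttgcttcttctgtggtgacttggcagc
Itgb7 (chr15:102231906-102232185, minus strand): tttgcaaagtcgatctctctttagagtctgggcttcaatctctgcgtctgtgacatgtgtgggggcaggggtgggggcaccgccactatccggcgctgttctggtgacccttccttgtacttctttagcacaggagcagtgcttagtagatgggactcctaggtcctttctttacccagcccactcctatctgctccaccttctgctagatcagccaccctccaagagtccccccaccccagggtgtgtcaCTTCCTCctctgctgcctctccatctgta
The letters start at position 167 of the Itgam window and 252 of the Itgb7 window, counted from 1 at the 5′ end, and are not in the Itgax window. RefSeq gave a promoter for 7 of the 10 integrin genes, and 3 of these 7 (Itgam, Itgb7 and Itgav) held the letters on either strand. Of all 32851 promoter windows of the same length, 12.16% held them. A match is a description of letters and not a binding site.

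**Figure D1:**
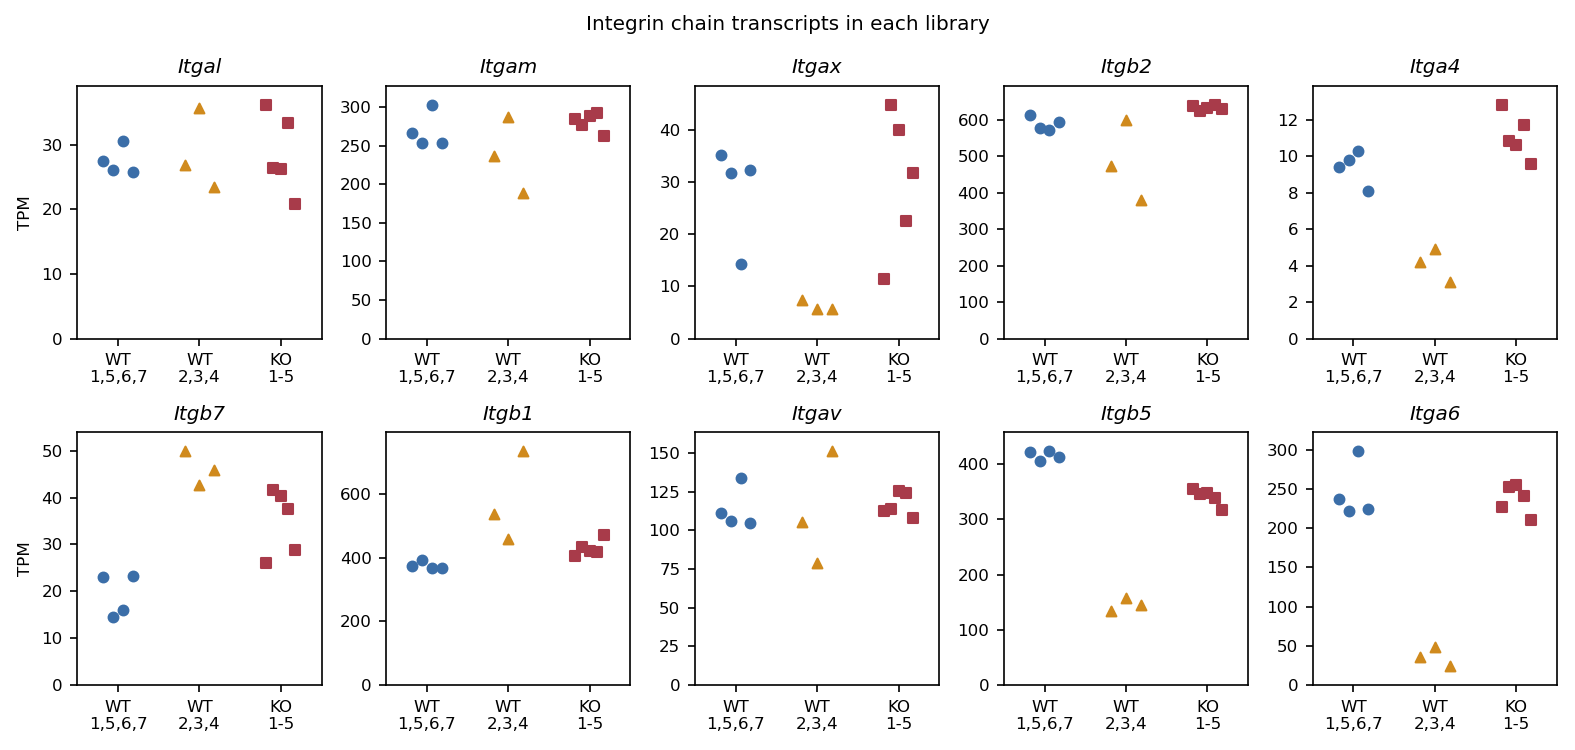
TPM of each of the 10 integrin genes (vertical axis, linear from 0) in every library, with WT replicates 1, 5, 6 and 7 as circles, WT replicates 2, 3 and 4 as triangles and the 5 KO libraries as squares. Itgb7 steps up and Itgb5 steps down from the 4 WT circles to the KO squares, and the triangles lie beyond the KO libraries in both.

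With all 12 libraries, none of the 10 genes passed the threshold of 0.05 for KO against WT in limma after Benjamini-Hochberg adjustment over 11152 genes, of which 0.126% passed. At an unadjusted p under 0.05 there was 1 of 10 (Itga4) with 12 libraries, against 17.5% of all genes, and 5 of 10 with 9 libraries (Itgb2, Itga4, Itgb7, Itgb1 and Itgb5), against 18.9%. With 9 libraries 2 of the 10 passed, Itgb7 higher and Itgb5 lower in KO. Among all genes 2.33% passed with 9 libraries, 1.61% higher and 0.717% lower. These were 180 higher and 80 lower genes, and under median-ratio scaling 73 higher and 133 lower. The median log2 fold change of the 10 genes was 0.27 with 12 libraries and 0.05 with 9, against 0.04 and 0.05 over all genes tested. Counted by ranges, the KO libraries lay above all 4 WT libraries for 3 of the 10 genes (Itgb2, Itgb7 and Itgb1), against 7.08% of all genes. They lay below all 4 for 1 (Itgb5), against 2.08%, and so did not overlap for 4 of 10, against 9.16%. They lay above all 7 WT libraries for 1 of the 10 (Itgb2), against 2.91% of all genes, and below all 7 for 0, against 0.637% (3.55% in either direction).

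**Figure D2:**
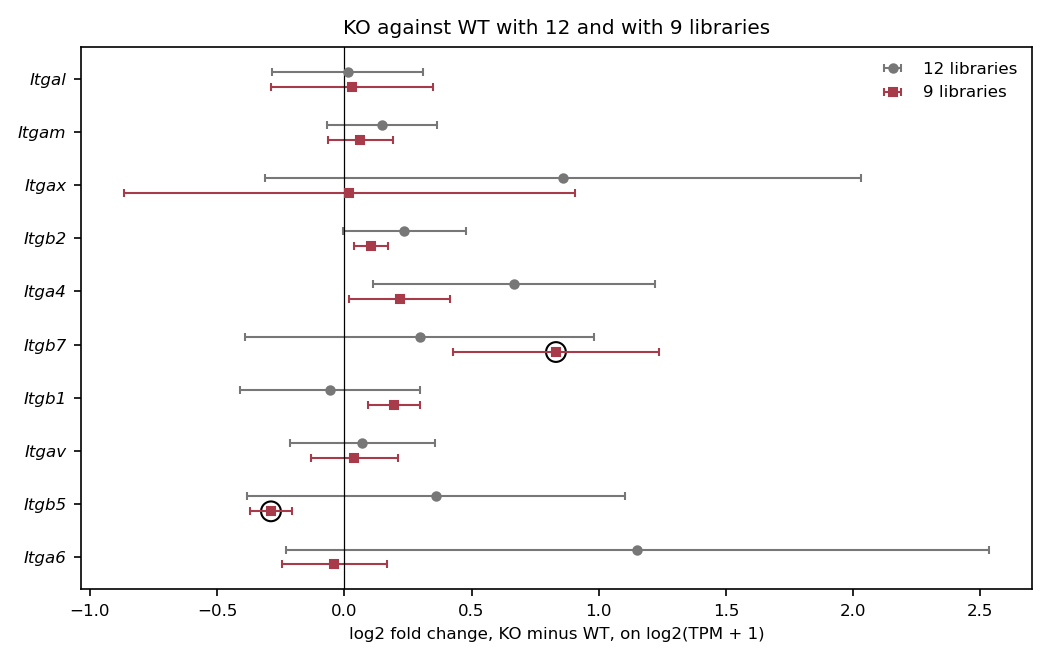
Log2 fold change of KO minus WT on the log2(TPM + 1) scale (horizontal axis) for each gene, with 95% confidence intervals from limma, for 12 libraries (grey circles) and 9 libraries (red squares); open rings mark an adjusted p under 0.05. The 2 ringed values are Itgb7 at 0.83 and Itgb5 at -0.29 with 9 libraries, and the intervals of Itgax and Itga6 with 12 libraries span more than those of the other genes.

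Itgb2 encodes the beta 2 chain (CD18), common to all leukocyte integrins, and was the most abundant of the 10 transcripts in the KO libraries and in WT replicates 1, 5, 6 and 7. It was at 614, 579, 572 and 594 TPM in WT replicates 1, 5, 6 and 7. WT replicates 2, 3 and 4 held 473, 600.3 and 379.7 TPM. The KO libraries (replicates 1 to 5) were at 639, 624.9, 634, 642 and 629 TPM. Every KO library thus lay above every WT library, by little in the case of WT replicate 1. The log2 fold change was 0.24 ± 0.11 (SE) with 12 libraries (limma adjusted p of 0.289) and 0.10 ± 0.0298 with 9 (limma adjusted p of 0.1001), so the difference did not pass the threshold in either set. Under median-ratio scaling, which divides each library by 1 factor taken over all genes, the value with 9 libraries was 0.05 (limma adjusted p of 0.431).

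Itgam encodes the alpha M chain (CD11b), which with beta 2 forms the complement receptor Mac-1. It was the most abundant of the 3 alpha partners in each of the 12 libraries and made up 79.5% to 87.4% of their summed TPM. It ranged from 253 to 303 TPM in WT replicates 1, 5, 6 and 7, from 263 to 292 TPM in KO, and WT replicates 2, 3 and 4 held 236, 287 and 188 TPM. The groups overlapped, with a log2 fold change of 0.06 ± 0.0572 (SE) with 9 libraries (limma adjusted p of 0.61) and 0.15 with 12 (limma adjusted p of 0.373). The annotation places Gm49368, a gene of the same strand that runs from within Itgam toward Itgax, over most of Itgam. Gm49368 is not among the genes with deposited values, and reads that fit both cannot be assigned from gene totals.

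Itgal encodes the alpha L chain (CD11a) of LFA-1, which binds ICAMs. WT replicates 1, 5, 6 and 7 held 27.5, 26.1, 30.7 and 25.8 TPM, and WT replicates 2, 3 and 4 held 26.9, 35.8 and 23.5 TPM. The KO libraries were at 36.2, 26.3, 26.2, 33.4 and 20.8 TPM. The KO libraries spread more widely than the 4 WT libraries and enclosed them. The log2 fold change was 0.01 ± 0.135 (SE) with 12 libraries and 0.03 ± 0.142 with 9 (limma adjusted p of 0.955 and 0.933), and it turned to -0.01 and -0.02 under median-ratio scaling.

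Itgax encodes the alpha X chain (CD11c), often used as a marker of dendritic cells and of some macrophages. It was at 35.1, 31.7, 14.3 and 32.4 TPM in WT replicates 1, 5, 6 and 7. The KO libraries were at 11.4, 44.8, 40.03, 22.5 and 31.7 TPM, and WT replicates 2, 3 and 4 at 7.30, 5.57 and 5.75 TPM. Those 3 were the lowest of the 12, while KO and the remaining WT libraries overlapped over nearly their whole range. KO minus WT in log2 was 0.86 ± 0.537 (SE) with 12 libraries and 0.02 ± 0.395 with 9 (limma adjusted p of 0.348 and 0.987), with 95% intervals of -0.31 to 2.03 and -0.87 to 0.90.

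Among the 9 libraries, the 3 lowest in Itgax were KO replicate 1, WT replicate 6 and KO replicate 4, and the same 3 were the highest in Itgal, at 36.2, 30.7 and 33.4 TPM. These 3 libraries also held the lowest sums of the fibroblast and smooth muscle markers, at 190 TPM in KO replicate 1, 112 TPM in WT replicate 6 and 273 TPM in KO replicate 4, against 392 to 605 TPM in the other 6. The neutrophil marker sum was highest in KO replicates 1 and 4, at 6253 and 4374 TPM, but was 1192 TPM in WT replicate 6, within the 1003 to 2104 TPM of the others. In WT replicates 2, 3 and 4 Itgax was low where the fibroblast and smooth muscle sum was high, so no single order holds over all 12. The part of these cells in the levels of Itgax and Itgal was not tested. The 6 dendritic cell markers summed to at most 2.41 TPM in any library, and Flt3 and Cd209a were at 0.14 TPM or less. Zbtb46 of the same list was at 1.04 to 2.16 TPM in WT replicates 2, 3 and 4, the lowest in Itgax, and at most 0.29 TPM elsewhere.

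**Figure D3:**
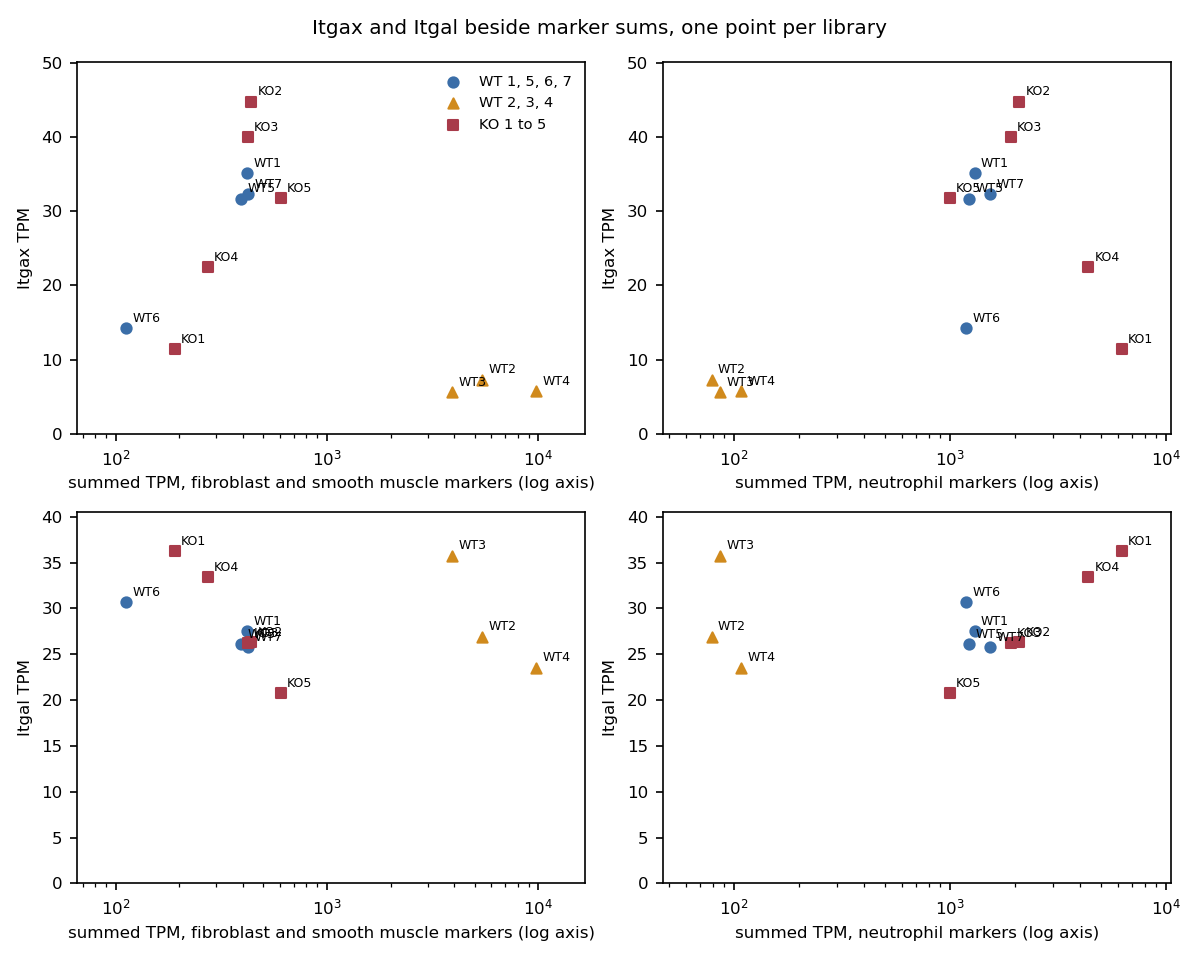
Itgax (upper panels) and Itgal (lower panels) in TPM on a linear axis from 0, against the summed TPM of fibroblast and smooth muscle markers (left) or neutrophil markers (right) on a log axis, with 1 labelled point per library. KO1, KO4 and WT6 sit lowest in Itgax and highest in Itgal among the 9 libraries other than WT2, WT3 and WT4.

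Set against the beta 2 chain within each library, the 3 alpha chains summed to 0.501 to 0.608 of the Itgb2 level in all 12 libraries, although Itgb2 itself ranged from 379.7 to 642 TPM. Itgam to Itgb2 was 0.417 to 0.455 in KO and 0.428 to 0.53 in WT replicates 1, 5, 6 and 7. Itgax to Itgb2 was 0.0179 to 0.0717 in KO, 0.0249 to 0.0572 in those WT libraries, and 0.00928 to 0.0154 in WT replicates 2, 3 and 4. The ratios overlapped between the genotypes for all 3 alpha chains. Of the 3, the Itgax ratio was the one that fell below every other library in WT replicates 2, 3 and 4, while the Itgal ratio lay above every other library there, at 0.0569 to 0.062 against at most 0.0567. No test was made of ratios.

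Itgb7 encodes the beta 7 chain, best known from gut-homing lymphocytes and mast cells. It lies on chromosome 15, 102215995 to 102231944 on the minus strand. Itgb7 was at 23.1, 14.6, 16.0 and 23.2 TPM in WT replicates 1, 5, 6 and 7, and at 26.0, 41.7, 40.3, 37.5 and 28.8 TPM in the KO libraries. The highest levels, 49.9, 42.8 and 46.0 TPM, were those of WT replicates 2, 3 and 4. The 3 sets did not overlap: every KO library lay above the 4 WT libraries and below WT replicates 2, 3 and 4. KO replicate 2 and WT replicate 3 nearly met.

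With 9 libraries Itgb7 rose in KO. Its mean was 34.9 ± 7.03 TPM (SD, n = 5) against 19.2 ± 4.57 TPM (SD, n = 4). The difference in log2 was 0.83 ± 0.181 (SE, 95% interval 0.43 to 1.24), and limma gave an adjusted p of 0.0483. With all 12 libraries the value was 0.30 ± 0.314 (limma adjusted p of 0.543). The call with 9 libraries stood close to the threshold and was lost in 11 of 13 other settings. Over those 13 the log2 fold change stayed between 0.72 and 0.93 and the adjusted p between 0.0312 and 0.114. It held without KO replicate 1 and was lost when any 1 of the other 8 libraries was left out, and it was also lost under median-ratio scaling (adjusted p of 0.0554).

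Among the KO libraries Itgb7 was lowest in replicates 1 and 5, which had the highest and the lowest neutrophil marker sums, 6253 and 1003 TPM. Markers of the cells best known for Itgb7 were scarce. The mast cell genes Mcpt4 and Tpsb2 were listed at 0 in every library, and Cpa3, Fcer1a and Ms4a2 were at most 0.84 TPM. The basophil protease Mcpt8 reached 2.27 to 6.87 TPM in WT replicates 2, 3 and 4, the libraries with the most Itgb7. It was at 3.15 TPM in KO replicate 1, the KO library with the least Itgb7. The 7 T and NK cell markers summed to 1.13 to 3.32 TPM over the 12 libraries, of which Cd4 gave 0.59 to 2.87 TPM, and Cd3e was at 0.24 TPM or less. The part of any of these cells in the level of Itgb7 was not tested.

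Itga4 encodes the alpha 4 chain, the partner of beta 7 and of beta 1, and was the least abundant of the 10 transcripts in each of the 3 sets. It was at 9.40, 9.82, 10.3 and 8.11 TPM in WT replicates 1, 5, 6 and 7 and at 12.8, 10.8, 10.6, 11.7 and 9.58 TPM in KO. WT replicates 2, 3 and 4 held 4.20, 4.93 and 3.08 TPM. KO replicate 5 fell inside the WT range, the other 4 KO libraries lay above it, and WT replicates 2, 3 and 4 lay below all others. The log2 fold change was 0.67 ± 0.255 (SE) with 12 libraries and 0.22 ± 0.0892 with 9 (limma adjusted p of 0.249 and 0.226). The gene Cerkl overlaps 2581 bases of Itga4 on the opposite strand and was at 0.75 to 3.03 TPM. The sources used here do not say how strand was handled, so reads of the overlap cannot be told apart.

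The ratio of Itga4 to Itgb7 was 0.35 to 0.673 in WT replicates 1, 5, 6 and 7, 0.26 to 0.494 in KO and 0.067 to 0.115 in WT replicates 2, 3 and 4. In the last set beta 7 transcripts thus exceeded alpha 4 transcripts by more than in any other library. Against its more abundant partner Itgb1, Itga4 was at 0.022 to 0.0281 in the 4 WT libraries and 0.0203 to 0.0316 in KO, overlapping ranges, and at 0.00419 to 0.0108 in WT replicates 2, 3 and 4.

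**Figure D4:**
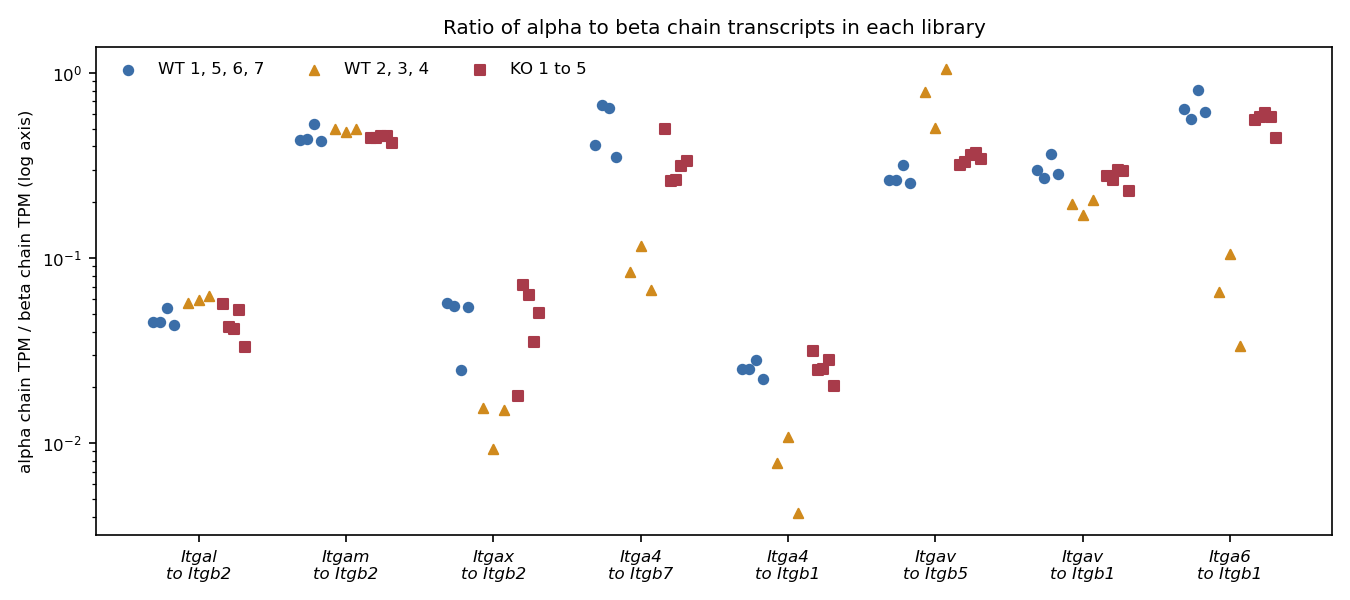
TPM of an alpha chain divided by TPM of its beta chain in each library (vertical log axis) for 8 pairs, with symbols as in the plot of levels by library. The ratio of Itgam to Itgb2 keeps to 0.417 to 0.53 in all 12 libraries, while that of Itga6 to Itgb1 falls from 0.447 to 0.812 in 9 libraries to 0.0332 to 0.105 in WT replicates 2, 3 and 4.

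Itgb5 encodes the beta 5 chain, which pairs with alpha V. It was at 421, 405, 424 and 413 TPM in WT replicates 1, 5, 6 and 7 and at 355, 345, 347, 338 and 316 TPM in KO. Levels in WT replicates 2, 3 and 4 were 134, 157 and 144 TPM. As with Itgb7, the 3 sets did not overlap and the KO libraries lay between the others, but in the reverse order. How many of all genes had the KO libraries between the others in this way was not counted.

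With 9 libraries Itgb5 fell in KO. Its mean was 340.5 ± 14.7 TPM (SD, n = 5) against 416 ± 8.41 TPM (SD, n = 4), which is 18.1% lower. In log2 the difference was -0.29 ± 0.0375 (SE), and limma gave an adjusted p of 0.00814. The call held in all 13 other settings run with 9 libraries, with log2 fold changes of -0.34 to -0.26 and adjusted p-values of 0.00459 to 0.0422. With all 12 libraries the sign was the opposite, 0.36 ± 0.34 (limma adjusted p of 0.497), since WT replicates 2, 3 and 4 lay below every KO library.

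Itgav encodes the alpha V chain, the partner of beta 5 and of several other beta chains. It was at 111, 106, 134 and 105 TPM in WT replicates 1, 5, 6 and 7, and at 113, 114, 125, 124 and 108 TPM in KO. WT replicates 2, 3 and 4 held 105, 78.6 and 151 TPM. All 3 sets overlapped, and the log2 fold change was 0.04 ± 0.0761 (SE) with 9 libraries (limma adjusted p of 0.827, -0.01 under median-ratio scaling) and 0.07 ± 0.131 with 12 (limma adjusted p of 0.73). The ratio of Itgav to Itgb5 was 0.254 to 0.316 in the 4 WT libraries, 0.317 to 0.366 in KO and 0.501 to 1.05 in WT replicates 2, 3 and 4. The sets did not overlap, though the highest WT ratio (replicate 6) and the lowest KO ratio (replicate 1) nearly met. Alpha V transcripts were thus fewer than beta 5 transcripts in 11 libraries and slightly more in WT replicate 4.

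Itgb1 encodes the beta 1 chain, the common partner of alpha 4, alpha 6, alpha V and many others, found on most cell types. It was at 373, 393, 367 and 368 TPM in WT replicates 1, 5, 6 and 7 and at 407, 434, 421, 419 and 472 TPM in KO. WT replicates 2, 3 and 4 held 538, 458 and 734 TPM. Every KO library lay above the 4 WT libraries, and KO replicate 5 reached into the range of WT replicates 2, 3 and 4. The log2 fold change was 0.20 ± 0.0457 (SE) with 9 libraries and did not pass the threshold (limma adjusted p of 0.0561). Of 13 other settings it passed in 1, without KO replicate 1 (limma adjusted p of 0.0433). Under median-ratio scaling the value was 0.14 (limma adjusted p of 0.181). With 12 libraries the log2 fold change was -0.06 ± 0.162 (limma adjusted p of 0.825). The level of Itgb1 was highest in WT replicate 4, which also had the highest fibroblast and smooth muscle sum, 9784 TPM; the part of those cells was not tested.

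Itga6 encodes the alpha 6 chain, a laminin receptor chain with beta 1. It was at 237, 221, 298 and 224 TPM in WT replicates 1, 5, 6 and 7 and at 227, 252, 255, 241 and 211 TPM in KO. Levels of 35.1, 48.1 and 24.4 TPM were found in WT replicates 2, 3 and 4. The genotypes overlapped among the 9 libraries, and WT replicates 2, 3 and 4 lay far below all of them. The log2 fold change was -0.04 ± 0.092 (SE) with 9 libraries and 1.15 ± 0.634 with 12 (limma adjusted p of 0.855 and 0.32).

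Across the WT libraries alone, replicates 2, 3 and 4 lay below the other 4 for Itgax, Itga4, Itgb5 and Itga6, above them for Itgb7 and Itgb1, and overlapped them for Itgal, Itgam, Itgb2 and Itgav. These 6 of 10 genes stand beside 58.2% of all 11152 genes whose ranges did not overlap in that way (29.9% higher and 28.3% lower), so the share is near the background. The 3 libraries were set apart from measured values and are no group of the study, so no test was made. The order of the transcripts by mean TPM also differed. In WT replicates 1, 5, 6 and 7 it ran Itgb2, Itgb5, Itgb1, Itgam, Itga6, Itgav, with Itgax and Itgal overlapping, then Itgb7 and Itga4. The ranges of Itgam and Itga6 overlapped. In KO, Itgb1 at 407 to 472 TPM stood above Itgb5 at 316 to 355 TPM without overlap, where in the 4 WT libraries Itgb5 at 405 to 424 TPM stood above Itgb1 at 367 to 393 TPM. In WT replicates 2, 3 and 4 Itgb7 stood above Itgax without overlap, in WT replicates 1, 5, 6 and 7 and in KO their ranges overlapped.

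The genes whose profile over the 12 libraries was closest to that of each strongly varying chain were found by the root mean square difference of centred log2(TPM + 1) values, among 10554 named genes. For Itga6 they were Gpr183, Lfng and Slamf9, with differences of 0.176, 0.188 and 0.189. For Itgb5 they were Sipa1l2, Disc1 and Trim65 (0.09, 0.114 and 0.117), and for Itga4 Sgk3, Slc16a10 and Lpxn (0.088, 0.102 and 0.105). For Itgax the closest were Dhrs9, Matk and Adra1a (0.25, 0.343 and 0.371), and for Itgb7 Serpinb9, Serpinb1c and Dusp1 (0.249, 0.266 and 0.277). The closest genes of Itga6, Itgb5 and Itga4 were low in WT replicates 2, 3 and 4, as Slamf9 at 21.6 to 44.6 TPM against 146 to 237 TPM elsewhere, and those of Itgb7 were high there, as Dusp1 at 163 to 202 TPM against 85.9 to 149.7 TPM. These are likenesses over libraries that share that split.

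Other genes of integrin biology were examined in 5 lists of 79 genes, 58 of them tested. With 12 libraries none of the 58 passed in limma, and 13 had an unadjusted p under 0.05, a share near the 17.5% of all genes. With 9 libraries 5 were higher and 2 lower in KO, where 1.61% and 0.717% of all genes were. The median log2 fold changes with 9 libraries were 0.01 for other integrin chains, -0.02 for ligands, 0.06 for activation and adaptor genes, 0.03 for leukocyte signalling genes and 0.02 for membrane partners, against 0.05 over all genes. Of the other integrin chains listed 5 of 17 were tested and 0 passed in limma (0 with 9 libraries at an unadjusted p under 0.05). The list left out Itgb2l, at 1.21 to 7.69 TPM in KO and 0 to 2.12 TPM in the 7 WT libraries. Its log2 fold change with 12 libraries was 1.38 ± 0.427 (SE, limma adjusted p of 0.216). Itga5, the fibronectin receptor chain, lay at 188 to 217 TPM in WT replicates 1, 5, 6 and 7 and 197 to 219 TPM in KO. Itga11, a collagen receptor chain of fibroblasts, lay at 17.5 to 57.7 TPM in WT replicates 2, 3 and 4 and at most 3.71 TPM elsewhere. Itgad, Itgae, Itgb6 and Itgb8 stayed under 1 TPM in all 12 libraries.

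Among ligands, 10 of 18 were tested, and with 9 libraries 1 rose and 1 fell. Icam2, a ligand of LFA-1, rose to 11.6 ± 2.25 TPM (SD, n = 5) in KO from 6.77 ± 0.252 TPM (SD, n = 4), a difference of 0.68 in log2 (adjusted p of 0.0257 in limma). Fn1, the fibronectin bound by integrins of the beta 1 and alpha V families, fell from 262 ± 22.6 to 130.3 ± 26.6 TPM, with a log2 difference of -1.02 (adjusted p of 0.0121 in limma), and stood at 464 to 1308 TPM in WT replicates 2, 3 and 4. With 12 libraries their values were 0.58 and -1.64 (limma adjusted p of 0.163 and 0.149). The ligand genes Madcam1 and Vtn were at 0.20 TPM or less in every library.

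Genes acting inside the cell were next. Of 21 activation and adaptor genes 20 were tested and 0 passed with 9 libraries in limma (4 of the 20 at an unadjusted p under 0.05, near the 18.9% of all genes). Rap1b, a GTPase that switches integrins on, lay at 267 to 326 TPM in KO and 272 to 332 TPM in the 4 WT libraries, and Fermt3, the kindlin of blood cells, at 228 to 260 and 230 to 268 TPM. Of 15 leukocyte signalling genes 3 rose and 1 fell with 9 libraries, and of 8 membrane partners 1 rose, where 2.33% of all genes passed in either direction. At an unadjusted p under 0.05 there were 7 of 15 and 5 of 8, against 18.9%. Rac2, a GTPase of blood cells, rose from 70.9 ± 9.72 to 134 ± 28.0 TPM (log2 fold change 0.90, limma adjusted p of 0.0197). The kinase gene Syk (0.19, limma adjusted p of 0.0228), the exchange factor gene Vav3 (0.25, limma adjusted p of 0.0247) and the tetraspanin gene Cd82 (0.28, limma adjusted p of 0.0228) rose by less. Fyb, an adaptor gene, fell from 540.1 ± 37.4 to 456 ± 17.3 TPM (-0.24, limma adjusted p of 0.04). The neutrophil marker sum was higher in 4 of the 5 KO libraries, at 1915 to 6253 TPM, than in WT replicates 1, 5, 6 and 7, at 1192 to 1545 TPM. Among the 9 libraries Rac2 (176 TPM) and Icam2 (14.8 TPM) were highest in KO replicate 1, which had the highest neutrophil sum. WT replicates 2, 3 and 4, with neutrophil sums of 79.1 to 108 TPM, held Rac2 at 91.4 to 187 TPM and Icam2 at 5.66 to 10.6 TPM. In KO replicate 5, with the lowest of the 9 sums at 1003 TPM, Rac2 was at 111 TPM against at most 80.2 TPM in the 4 WT libraries, and Icam2 at 8.48 TPM against at most 7.14 TPM. Without KO replicate 1 all 7 calls held, with Rac2 at 0.79 and Icam2 at 0.59 in log2. KO replicates 2, 3 and 4 still held neutrophil sums of 2104, 1915 and 4374 TPM. The part of neutrophils in these 7 calls was not tested.

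None of these 7 calls was made with 12 libraries, and with 9 each was lost without WT replicate 1 or 7 or both. Losses were not limited to these 2. Of the 9 fits with 1 library left out, Fn1 passed in 8, Rac2 in 5 and Syk and Vav3 in 4 each. Icam2 and Cd82 passed in 3 each and Fyb in 2. Adjusted p-values with 1 of the 9 left out ran up to 0.119 (Fyb). Syk (0.0616) and Vav3 (0.0806) were also lost under median-ratio scaling, Vav3 (0.0541) and Fyb (0.0793) with the submission-number covariate, and Icam2 (0.0627), Rac2 (0.0552) and Fyb (0.0723) without the filter, all as adjusted p in limma. Over the 13 other settings with 9 libraries the log2 fold changes kept their sign and stayed between 0.79 and 0.98 for Rac2, 0.59 and 0.77 for Icam2, and -1.09 and -0.91 for Fn1. They were 0.13 to 0.21 for Syk, 0.20 to 0.27 for Vav3, 0.23 to 0.30 for Cd82 and -0.29 to -0.20 for Fyb.

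**Figure D5:**
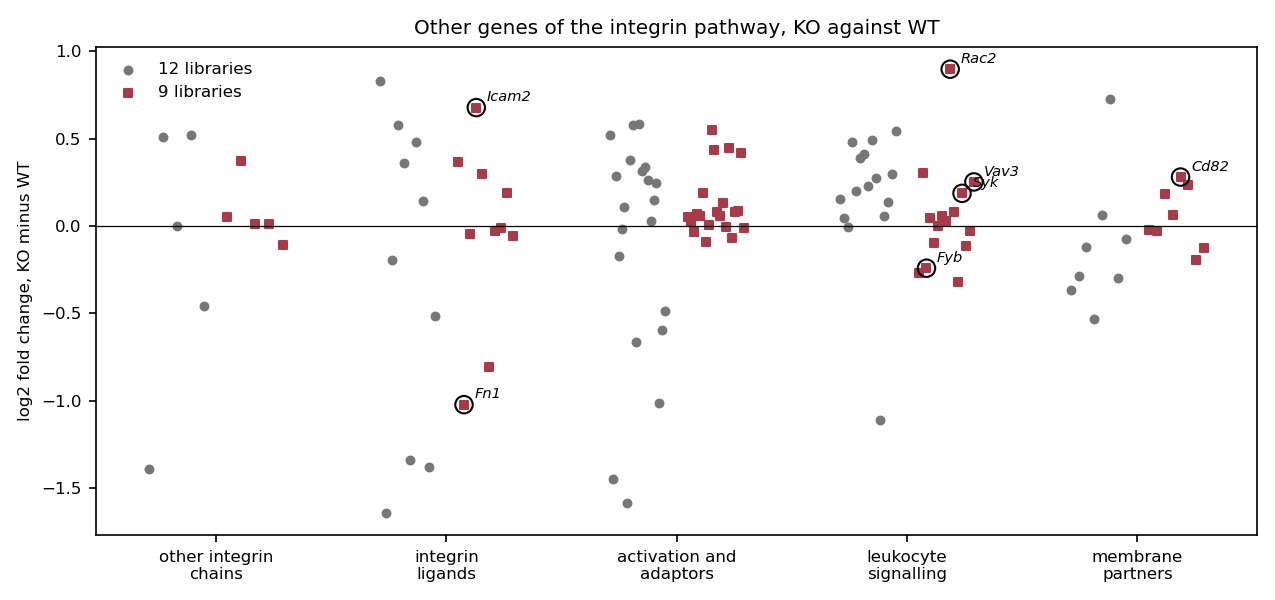
Log2 fold change of KO minus WT (vertical axis) for the tested genes of 5 lists, with 12 libraries as grey circles and 9 libraries as red squares, spread sideways for view only; open rings mark an adjusted p under 0.05. The 7 ringed genes are all from the set of 9 libraries, from Rac2 at 0.90 to Fn1 at -1.02.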

How the data were processed

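Total RNA was taken from the cells with a column kit, and, per the labels' protocols, libraries were sequenced as paired reads of 51 bases. Tools named in the submitters' processing notes are bcl2fastq and Salmon 1.2.0, with the mm10 build. The sources used here do not give the annotation release, the summing to genes or the strand setting. The authors deposited TPM for 23438 genes in 12 columns, matched to libraries through the descriptions. That the values are TPM was read from their near-equal sums (940127 to 947987 per library). TPM keeps no depth, so no counting interval was computed. Symbols and coordinates came from GENCODE M21 (23423 IDs matched).

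KO was compared with WT by limma-trend (limma 3.58.1, R 4.3.3) on log2(TPM + 1) over the 11152 genes at 1 TPM or more in at least 5 libraries, with genotype as the only term and Benjamini-Hochberg adjustment over all of them. Fold changes on this scale understate changes of low genes. The alternatives were a pseudocount of 0.1, no filter, median-ratio scaling, a replicate block, a submission-number covariate and leaving out libraries. The integrin genes, the lists and the set of 9 libraries were chosen with earlier results of these data known. The genes named are the 10 chains, Smarcd1, the called genes of each list (at most 4, or the 2 most abundant where none was called), and the 3 closest profiles of each chain spanning at least 1 log2 unit. Other list genes, marker genes, Cerkl and Itgb2l were named after their values were seen.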

Additional observations from a re-analysis of the deposited data

How the results depend on the processing

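With 12 libraries 0 of the 10 integrin genes passed under a pseudocount of 0.1, no filter, median-ratio scaling, a submission-number covariate, and each single library left out (range 0 to 0). Leaving out WT replicates 2, 3 and 4 together gave 2. With 9 libraries 2 passed, against 1 without the filter, 1 under median-ratio scaling, 1 with the submission-number covariate, and 1 to 3 with a single library left out. Itgb5 passed in each of these and Itgb7 in the pseudocount setting and without KO replicate 1. Causes were not tested.

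Same-numbered libraries correlated at -0.224 to 0.222 in their deviations from the mean of their genotype. The WT deviations carry the split of WT replicates 2, 3 and 4 from the others. These values therefore cannot show whether the replicate numbers pair the libraries. With a replicate block in the 10 libraries that share numbers, 0 integrin genes and 0 of all genes passed in limma (3706 at an unadjusted p under 0.05), and without the block in the same 10 libraries 0 and 13 passed. WT replicates 2, 3 and 4 each correlated best with KO replicate 5, at 0.292, 0.211 and 0.262.

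Of all genes, 14 passed with 12 libraries, 4 under median-ratio scaling, 3 with the covariate and 2 to 36 with 1 library left out. With 9 libraries 260 passed, 167 without the filter, 132 with the covariate and 51 to 462 with 1 library left out.

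The sign turned for small values. With 12 libraries Itgal was -0.012 under median-ratio scaling and -0.076 to 0.12 with 1 library left out, Itgb1 -0.10 to 0.062 and Itgav -0.011 to 0.14. Without WT replicates 2, 3 and 4 Itgb1 was 0.20, Itgb5 -0.29 and Itga6 -0.040. With 9 libraries under median-ratio scaling Itgal was -0.020, Itgax -0.031 and Itgav -0.013. With 1 of the 9 left out Itgal was -0.058 to 0.14, Itgax -0.27 to 0.32 and Itga6 -0.085 to 0.057.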
